A study of Mus musculus with 6 samples.

Results

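The genes described here are 9 mouse genes that dendritic cells raise when they mature and leave a tissue: Ccr7, Fscn1, Ccl17, Ccl22, Cd83, Relb, Cd40, Cd80 and Cd86. They were taken by name from a count table of 55487 genes, and all 9 passed the filter on low counts that left 17988 genes to test. The table holds 6 libraries of polyadenylated RNA from whole dorsal mouse skin on day 2. All of the skin had been treated with DPCP (diphencyprone), a contact sensitizer that provokes an allergic reaction, so no library shows skin without it. In 3 libraries the mice had also received clodrosome (written Codrosome in the sample titles), liposomes carrying clodronate, which kills phagocytes that engulf them. The other 3 had received Encapsome, the liposomes without the drug, and are the controls. The labels give neither strain, sex, age, dose nor route, and do not say whether each library is a separate animal, so p-values below measure the spread between these libraries, which may be technical.

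Dendritic cells sample antigen in skin and, once activated, change from uptake to presentation. The receptor CCR7 then guides them along its ligands CCL19 and CCL21 into lymphatic vessels and lymph nodes, the actin-bundling protein fascin (Fscn1) gives them long processes and speed, and CD40, CD80 and CD86 deliver the costimulation that naive T cells need. The NF-kappaB subunit RelB drives much of this programme, CD83 is the classical surface marker of the mature state, and CCL17 and CCL22 attract T cells that carry CCR4. In contact allergy this traffic carries the hapten from the skin to the draining node. None of the 9 genes is made by dendritic cells alone: B cells, macrophages, T cells, endothelium or keratinocytes express several of them.

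The 9 genes did not move as a block in clodrosome skin. Ccr7 and Ccl22 were higher, Cd40 and Cd86 were lower, and Fscn1, Ccl17, Cd83, Relb and Cd80 did not pass the test. Thus 2 of 9 were called higher, against 9.41% of all tested genes, and 2 of 9 lower, against 13.0%. A gene is called where the adjusted p of edgeR's quasi-likelihood test, corrected over all tested genes by the Benjamini-Hochberg method, is under 0.05. Calls in either direction covered 4 of the 9 genes and 22.4% of all tested genes. Before adjustment 4 of the 9 had an edgeR p under 0.05, against 35.8% of all tested genes. The median log2 fold change (clodrosome over encapsome) was 0.085 over the 9 genes and 0.0090 over all tested genes. The libraries of the groups did not overlap for 4 of the 9, the same 4 that were called, while 40.2% of all tested genes had groups that did not overlap. RNA of whole skin cannot tell fewer cells of a type from less RNA per cell.

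**Figure D1:**
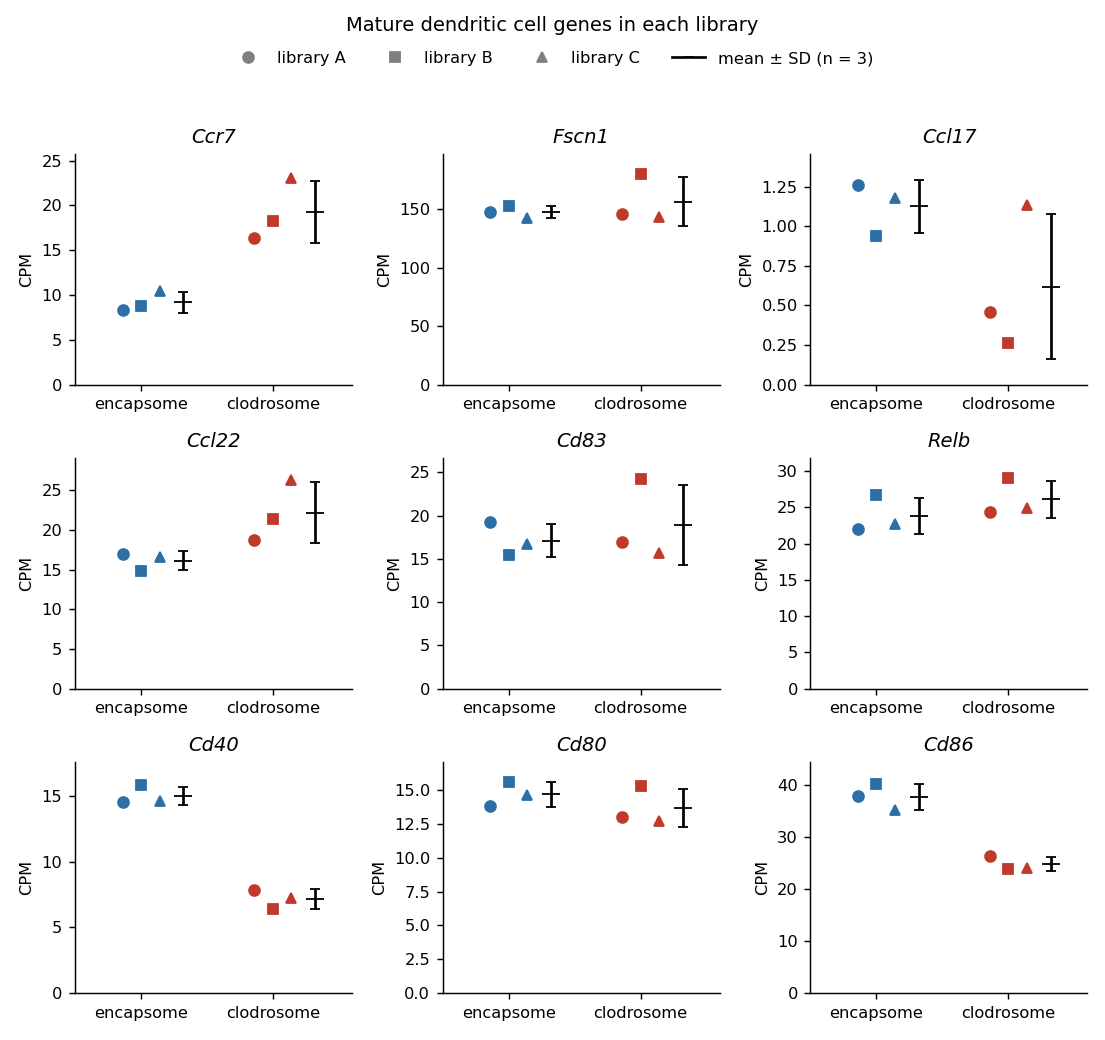
Normalised read counts (CPM, y axis from 0) of the 9 genes in each of 3 encapsome (blue) and 3 clodrosome (red) libraries; symbols mark libraries A, B and C, which are not paired between groups, and bars show mean ± SD. Ccr7 runs from 8.30 to 10.5 CPM with encapsome and from 16.3 to 23.1 CPM with clodrosome, and Cd40 from 14.6 to 15.8 and from 6.41 to 7.87 CPM.

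Totals per library ranged from 26649396 to 35566351 counts in 5 libraries and reached 116965654 in clodrosome library A. Libraries are called A, B and C in the order of the table, and the letters do not pair them. Levels are given as CPM, the count of a gene scaled to its library total with TMM factors. Of the counts from 1 to 20, 63.6% to 69.7% were even, and the counting command had no setting for read pairs. Known cell types moved strongly between the groups. The summed level of 9 macrophage markers ran from 654 to 1613 CPM with clodrosome, lowest in library B, and from 3693 to 4442 CPM with encapsome. All 9 macrophage and all 5 fibroblast markers were called lower, though Csf1r no longer passed when clodrosome C or encapsome A was left out (edgeR's adjusted p = 0.0550 and 0.0625). The markers of keratinocytes, blood endothelium and muscle had summed levels that were higher with clodrosome without overlap, at 21979 to 22520 against 15285 to 19027 CPM for keratinocytes. Most of the keratinocyte sum was Krt14, which was not called, and of the other markers of that list Trp63 and Krt5 were called higher, at 0.53 and 0.66 on the log2 scale, and Krt10 and Krt1 lower, at -1.36 and -1.10. The sums for T cells and neutrophils overlapped, but the neutrophil gene Retnlg, picked out after its values were seen, rose by 2.07 on the log2 scale (edgeR's adjusted p = 3.66e-04). The other 5 neutrophil markers were not called, at -0.32 to 0.43 on the log2 scale. The share of counts in rRNA genes split the libraries across both groups, from 0.334% to 0.481% in clodrosome A and C and encapsome A and from 0.788% to 0.845% in the others.

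The homing receptor Ccr7 had the largest rise of the 9. It lies on the minus strand of chromosome 11 (99144196 to 99155077, GRCm38), and no exon of another gene covers any of its exonic bases, which holds for each of the 9 genes. Its level was 16.3, 18.3 and 23.1 CPM in clodrosome libraries A, B and C and 8.30, 8.77 and 10.5 CPM in the encapsome libraries. Every clodrosome library lay above every encapsome library, and the lowest of the former exceeded the highest of the latter by more than either group's SD. The means were 19.2 ± 3.48 and 9.18 ± 1.14 CPM (SD, n = 3 each), so that Ccr7 rose 2.09-fold, by 1.07 ± 0.152 on the log2 scale (SE; edgeR's adjusted p = 0.00135). Leaving out each library in turn gave values from 0.91 to 1.18, and the call held in each case. Within the libraries of low rRNA share (clodrosome A and C, encapsome A) the difference of mean log2 CPM was 1.22. Within those of high share (clodrosome B, encapsome B and C) it was 0.93. Each value rests on a single library on one side.

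Naive and central memory T cells also carry Ccr7. The summed level of 8 T cell markers was 35.4 to 43.0 CPM with clodrosome and 35.2 to 39.5 CPM with encapsome. Their median log2 fold change was 0.37, from -0.67 for Cd4 to 0.67 for Cd247, both named after their values were seen. Cd4 made up 17.1 CPM of the sum in encapsome A. Of the 8 only the kinase gene Lck, named after its value was seen, was called, at 0.55 (edgeR's adjusted p = 0.0362). That call was lost without clodrosome A or B or encapsome B or C (edgeR's adjusted p = 0.0737, 0.0754, 0.0814 and 0.123). The B cell marker Ms4a1 stayed at or under 0.553 CPM in every library. The part of T cells in the rise of Ccr7 was not tested.

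The ligands of the receptor were almost absent from most libraries. Ccl19 had 88 and 23 counts in clodrosome libraries A and C, 0.736 and 0.636 CPM, and 0 counts in the other 4, where a count of 0 allows up to 0.187 to 0.225 CPM (3 fragments, taken as 6 counts; counting error only). The gene did not reach the filter. Ccl21a, picked out after its values were seen, stood at 16.5 CPM in clodrosome C and 18.1 CPM in encapsome B and at no more than 0.0761 CPM in each of the other 4. It has near-identical copies, and reads that fit several places were left out, so these levels are uncertain. Clodrosome C was also the highest library for Ccr7, but encapsome B was not the highest encapsome library, and clodrosome B held 18.3 CPM of Ccr7 with 0.0658 CPM of Ccl21a.

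Lymphatic vessels are the exit route. In the list of CCR7 ligands, their scavenger and the vessel wall, 7 genes were tested, and the ligand genes were not. Of these 7, 1 was called higher and 2 lower, with a median of -0.043. The podoplanin gene Pdpn, expressed by lymphatic endothelium and also by stromal and epidermal cells, changed by -1.01 ± 0.1003 (SE; edgeR's adjusted p = 2.29e-04). The hyaluronan receptor gene Lyve1, of lymphatic endothelium and some macrophages, changed by -0.79 ± 0.156 (SE; edgeR's adjusted p = 0.00667). Flt4, the receptor for lymphatic growth factors, changed by 0.55, a call that was lost without encapsome A, B or C (edgeR's adjusted p = 0.104, 0.0801 and 0.104). Prox1, of the same list and named after its values were seen, held 4.98 ± 0.166 CPM with clodrosome and 3.91 ± 0.0674 CPM with encapsome (SD, n = 3 each). Its groups did not overlap, but it was not called (edgeR's adjusted p = 0.104). Ackr4, a scavenger of CCR7 ligands named after its value was seen, held 15.9 ± 1.36 against 13.5 ± 1.75 CPM (SD, n = 3 each; edgeR's adjusted p = 0.201).

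The genes whose profile over the 6 libraries came nearest to that of Ccr7 were not immune genes. Likeness was measured as the root mean square difference of mean-centred log2 CPM, over 13718 other genes whose mean reached 1 CPM. The nearest were Des, the muscle intermediate filament desmin, at 0.116 log2 units, Clca3a1, of a family of chloride channel regulators, at 0.130, Stra6, the retinol uptake receptor, at 0.132, Igfbp2, an IGF-binding protein, at 0.140, and Mybpc1, a myosin-binding protein of slow muscle, at 0.141. They were selected for resembling Ccr7, so their own differences are no separate result. Des ran from 664 to 762 CPM with clodrosome and from 313 to 448 CPM with encapsome. Of the other 8 genes, Ccl22 was the nearest to Ccr7, at 0.326, and Ccl17 the farthest, at 1.15.

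Fscn1 did not pass the test. It lies on the plus strand of chromosome 5 (142960343 to 142973185). Its level was 146, 180.3 and 143 CPM in clodrosome A, B and C and 148, 152 and 142 CPM with encapsome. Clodrosome B stood above all others and the remaining 5 libraries lay close together. Its difference was 0.085 ± 0.0973 on the log2 scale (SE; edgeR's adjusted p = 0.579), and without clodrosome B it was -0.024 (edgeR's adjusted p = 0.818). Per kilobase of exons Fscn1 was by far the most abundant of the 9, at 51.9 ± 6.91 CPM per kb with clodrosome and 48.9 ± 1.71 with encapsome (SD, n = 3 each). Endothelial cells and fibroblasts make fascin too, and 5 blood endothelial markers summed to 487 to 545 CPM with clodrosome and 357 to 406 CPM with encapsome. The 5 fibroblast markers went the other way, at 1375 to 2438 CPM with clodrosome and 4832 to 5554 CPM with encapsome. The part of either cell type in the level of Fscn1 was not tested.

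Of 14 tested genes of the actin machinery and motility of migrating leukocytes 8 were called lower and 0 higher, with a median of -0.31, and 6 did not pass. Wipf1, which stabilises the Wiskott-Aldrich protein, fell by 0.85 on the log2 scale, and Was, the gene of that protein, by 1.15 ± 0.136 (SE; edgeR's adjusted p = 5.10e-04). Dock8, a Cdc42 activator that dendritic cells need to cross dense tissue, fell from 53.2 ± 1.94 to 34.9 ± 1.07 CPM (SD, n = 3 each), and the leukocyte actin bundler Lcp1 from 476 ± 28.6 to 297 ± 27.3 CPM (SD, n = 3 each). Macrophages and neutrophils express the same genes. Counts with 1 library left out were 6 or 7.

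The chemokine genes Ccl22 and Ccl17 are neighbours on chromosome 8 and encode ligands of one receptor, CCR4. Ccl22 lies at 94745590 to 94751699 and Ccl17 at 94810453 to 94812036, both on the plus strand of GRCm38, 58754 bases apart. Their upstream sequences are shown because the neighbours differed in level and in call. Each is the 250 bases before the RefSeq start (GRCm38.p6, plus strand, 5′ to 3′). For Ccl22 that start lies inside the gene as counted, which begins at 94745590, so the end of its window falls within the gene. The Ccl17 window ends just before its gene, so the windows are not alike in position. Capitals mark matches to TTCNNNNGAA or TTCNNNGAA, the spacings of inverted repeats that STAT6 and other STAT proteins bind.
Ccl22, chr8:94745434-94745683: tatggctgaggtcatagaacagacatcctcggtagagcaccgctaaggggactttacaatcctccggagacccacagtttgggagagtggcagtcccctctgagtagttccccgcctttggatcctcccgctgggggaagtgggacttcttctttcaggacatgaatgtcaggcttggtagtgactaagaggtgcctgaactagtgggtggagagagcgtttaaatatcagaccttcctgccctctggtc
Ccl17, chr8:94810203-94810452: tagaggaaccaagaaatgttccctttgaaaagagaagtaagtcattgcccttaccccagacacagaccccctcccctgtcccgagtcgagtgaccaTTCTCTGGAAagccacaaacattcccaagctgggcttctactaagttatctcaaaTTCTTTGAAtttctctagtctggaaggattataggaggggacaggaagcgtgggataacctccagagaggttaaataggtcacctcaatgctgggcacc

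The Ccl17 window held TTCTCTGGAA at 154 to 145 bases before the start and TTCTTTGAA at 99 to 91 bases before it, and the Ccl22 window held neither motif. Both motifs read the same on either strand, and the matches do not overlap. Among the 32851 upstream windows of this length in the RefSeq table, 5.85% held TTCNNNNGAA and 7.02% held TTCNNNGAA. The kappaB motif, searched on both strands, was in neither of the 2 windows and in 7.25% of all. Of the 9 genes 4 matched the table, Fscn1, Ccl17, Ccl22 and Cd80. A match of letters is no evidence of binding.

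Ccl22 was higher in clodrosome skin. Its level was 18.7, 21.4 and 26.4 CPM in clodrosome A, B and C and 17.0, 14.8 and 16.6 CPM with encapsome. The groups did not overlap, but clodrosome A lay close above encapsome A. Ccl22 was 1.37-fold higher, by 0.45 ± 0.133 on the log2 scale (SE; edgeR's adjusted p = 0.0378), with means of 22.2 ± 3.86 against 16.2 ± 1.19 CPM (SD, n = 3 each). This call was lost without clodrosome C (0.31; edgeR's adjusted p = 0.121), without encapsome A, B or C (0.49, 0.39 and 0.47; edgeR's adjusted p = 0.0679, 0.140 and 0.0903), and with a term for the rRNA split (0.42; edgeR's adjusted p = 0.0619). Its direction held in every fit.

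Ccl17 was scarce, and its groups overlapped. Clodrosome A, B and C held 55, 8 and 41 counts, or 0.460, 0.263 and 1.13 CPM, and the encapsome libraries 39, 30 and 31 counts, or 1.26, 0.939 and 1.18 CPM. Clodrosome C reached the control level while A and B were the lowest of the 6. On the log2 scale the difference was -0.89 ± 0.464 (SE; edgeR's adjusted p = 0.207). Without clodrosome C it was -1.53 and passed the test (edgeR's adjusted p = 0.0348), so 1 library decides this call. Within a library the log2 ratio of Ccl17 to Ccl22 averaged -5.41 ± 0.907 with clodrosome and -3.85 ± 0.114 with encapsome (SD, n = 3 each). The ratio was lower in every clodrosome library than in any encapsome library, by 1.56 on average (exact permutation test, two-sided, p = 0.1, adjusted p = 0.1 over 4 ratios). With 1 CPM added to both genes the difference was -0.85. With 3 against 3 libraries 0.1 is the smallest p this test can give, so none of the 4 ratios can pass it.

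The receptor Ccr4 was as scarce as Ccl17, with 0.561 to 2.04 CPM in clodrosome and 0.775 to 1.25 CPM in encapsome libraries (log2 fold change 0.18 ± 0.468, SE; edgeR's adjusted p = 0.826). In the list of CCR4-related receptors and chemokines 1 of 6 tested genes was called higher and 1 lower. Ccl8, a monocyte and T cell chemokine made mainly by macrophages, changed by -2.05 ± 0.276 (SE; edgeR's adjusted p = 9.85e-04). Ccl27a, a keratinocyte chemokine for skin-homing T cells, rose by 0.50, a call lost without encapsome A or B (edgeR's adjusted p = 0.0606 and 0.0535).

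TSLP, IL-4 and GM-CSF act on dendritic cells. Among 12 tested genes of these cytokines, their receptors and STAT proteins 8 were called lower and 0 higher, with a median of -0.49, or 4, 5 and 5 lower without clodrosome C, encapsome B and encapsome C. The TSLP receptor gene Crlf2 changed by -0.79 ± 0.0797 (SE; edgeR's adjusted p = 2.39e-04) and its partner chain Il7r by -1.20. The IL-4 receptor gene Il4ra fell from 407 ± 71.7 to 251 ± 21.8 CPM, and the GM-CSF receptor gene Csf2ra from 50.7 ± 3.19 to 31.9 ± 2.89 CPM (SD, n = 3 each). Of the cytokines Il4 and Il13 did not pass (edgeR's adjusted p = 0.476 and 0.406) and Csf2 was not tested. Tslp, an epithelial cytokine picked out after its values were seen, had a log2 fold change of -1.30 (edgeR's adjusted p = 0.0188; 0.0595 and 0.0515 without clodrosome A and C), with encapsome A at 26.6 CPM and the other encapsome libraries at 12.2 and 12.1. How these genes relate to the levels of Ccl17 and Ccl22 was not tested.

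Relb showed no difference beyond the spread. It lies on the minus strand of chromosome 7 (19606217 to 19629438). The clodrosome libraries held 24.4, 29.1 and 24.996 CPM and the encapsome libraries 22.0, 26.7 and 22.8 CPM, with library B the highest in each group. Relb differed by a log2 fold change of 0.13 ± 0.107 (SE; edgeR's adjusted p = 0.428). Its partner Nfkb2, which encodes p100 and p52, held 54.1 ± 1.17 against 58.3 ± 7.04 CPM (SD, n = 3 each; edgeR's adjusted p = 0.438).

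Of 22 genes of the NF-kappaB system other than Relb, 4 were called higher and 1 lower, with a median of 0.033, and 17 did not pass. Nfkbiz, an atypical nuclear IkappaB protein, rose from 51.4 ± 8.92 to 79.9 ± 2.77 CPM (SD, n = 3 each). Nfkbia, the classical IkappaB, rose by 0.54 and Tnfaip3, the A20 deubiquitinase, by 0.47 on the log2 scale. Nfkbia and Tnfaip3 encode inhibitors of the pathway that NF-kappaB itself induces. Map3k14, the kinase NIK that activates RelB and p52, changed by -0.37 ± 0.0878 (SE; edgeR's adjusted p = 0.0164), a call lost without clodrosome C, encapsome B or encapsome C (edgeR's adjusted p = 0.0641, 0.0714 and 0.0534). The other rise was Traf1, an adaptor of TNF receptors named after its value was seen, at 0.56, a call lost without clodrosome B, encapsome A or encapsome C (edgeR's adjusted p = 0.0562, 0.0927 and 0.0814).

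Cd83 varied more among the clodrosome libraries than any of the other genes but the scarce Ccl17 (CV of 24.3%). It lies on the plus strand of chromosome 13 (43784775 to 43803132). Its level was 17.0, 24.2 and 15.6 CPM in clodrosome A, B and C and 19.2, 15.4 and 16.7 CPM with encapsome. Clodrosome B was the highest of the 6 and clodrosome C the second lowest. The log2 fold change of 0.14 ± 0.165 (SE; edgeR's adjusted p = 0.592) became -0.062 without clodrosome B (edgeR's adjusted p = 0.741). Within the libraries of low rRNA share (clodrosome A and C, encapsome A) the difference of mean log2 CPM was -0.24. Within those of high share (clodrosome B, encapsome B and C) it was 0.59. Each value rests on a single library on one side, the second on clodrosome B, so a relation to rRNA share cannot be read from them.

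Clodrosome B was the highest clodrosome library for Fscn1, Cd83, Relb and Cd80. Clodrosome C was the highest for Ccr7, Ccl22 and Ccl17, and A for Cd40 and Cd86. Clodrosome B also had the lowest macrophage sum and, at 1975 CPM, the highest sum of 6 neutrophil markers, against 1477 and 1407 CPM in A and C, as well as the highest level of Retnlg, at 48.8 CPM. Among the encapsome libraries B had the highest neutrophil sum, 1623 CPM, and the lowest Cd83 of all 6 libraries, 15.4 CPM. Encapsome A had the lowest neutrophil sum, 1009 CPM, with 19.2 CPM of Cd83. Mature neutrophils can express Cd83. Its relation to these sums was not tested.

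Cd40 fell the most of the 9. The gene, on the plus strand of chromosome 2 (165055627 to 165072948), encodes the receptor through which T cells license dendritic cells. Its level was 7.87, 6.41 and 7.24 CPM in clodrosome A, B and C and 14.6, 15.8 and 14.7 CPM in the encapsome libraries. The groups were far apart, at 7.18 ± 0.733 and 15.03 ± 0.703 CPM (SD, n = 3 each). Cd40 was thus 2.08-fold lower (log2 fold change -1.06 ± 0.117, SE; edgeR's adjusted p = 3.59e-04), with a range from -1.14 to -0.98 when single libraries were left out.

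Cd86, on the minus strand of chromosome 16 (36603869 to 36666081), was lower by a smaller step. The clodrosome libraries held 26.4, 23.9 and 24.1 CPM and the encapsome libraries 37.8, 40.2 and 35.2 CPM. All clodrosome libraries lay below all encapsome libraries, and each group varied by less than 7% (CV of 5.53% and 6.66%). Cd86 changed by -0.60 ± 0.0839 on the log2 scale (SE; edgeR's adjusted p = 0.00117), or 1.52-fold, and ranged from -0.65 to -0.56 with single libraries left out.

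Cd80, the other B7 ligand, lies on the plus strand of the same chromosome (38455561 to 38496335). It did not pass the test. Its level was 13.0, 15.3 and 12.7 CPM with clodrosome and 13.8, 15.7 and 14.7 CPM with encapsome. The groups overlapped. The log2 fold change was -0.11 ± 0.111 (SE; edgeR's adjusted p = 0.546). Within each library the ratio of Cd80 to Cd86 was 0.494, 0.642 and 0.529 with clodrosome and 0.366, 0.389 and 0.417 with encapsome. The ratio was higher in every clodrosome library, by 0.50 on the log2 scale (exact permutation test, two-sided, p = 0.1, the smallest possible; adjusted p = 0.1 over 4 ratios). It does not depend on how libraries are scaled to each other.

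**Figure D2:**
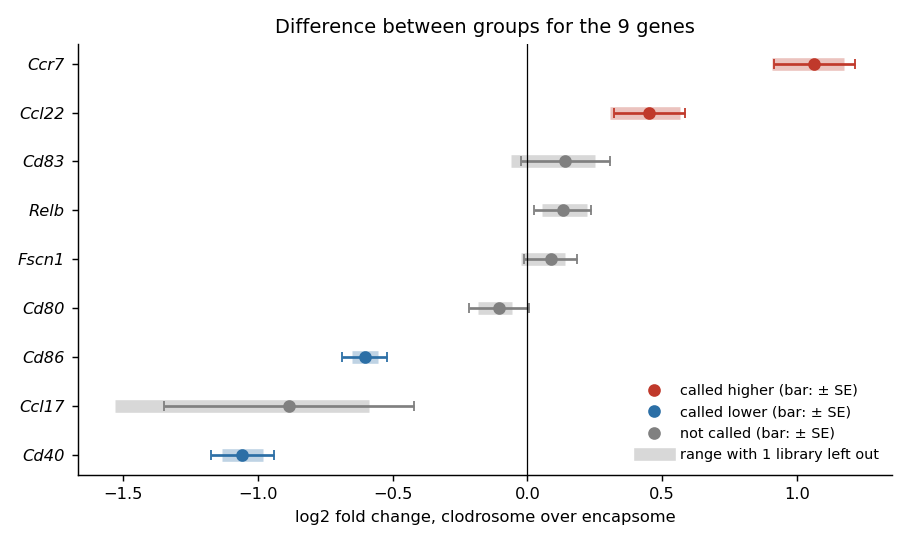
Log2 fold change (x axis, clodrosome over encapsome) of each gene with its SE (thin bar) and the range over the 6 fits that leave out 1 library (pale bar); red marks genes called higher, blue lower, grey not called. The ranges of Ccr7, Cd40 and Cd86 stay clear of 0, with -0.56 for Cd86 the nearest to it, and those of Fscn1 and Cd83 include it.

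Macrophages and B cells also express Cd40 and Cd86, and the markers of macrophages were lower in every clodrosome library. The B cell receptor chain gene Cd79b was called lower, at -1.43, a call lost without encapsome A or B (edgeR's adjusted p = 0.0551 and 0.0516). Clodrosome B, with the lowest macrophage sum, was the lowest library for both Cd40 and Cd86, at 6.41 and 23.9 CPM. Among the encapsome libraries both genes were highest in B, at 15.8 and 40.2 CPM. The macrophage sum was highest in encapsome A, at 4442 CPM against 4076 CPM in encapsome B. How much of either fall came from macrophages was not tested.

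The T cell side of these pathways was sparse and mixed. Of 10 tested genes of the B7 and CD28 families 2 were called higher and 2 lower, with a median of 0.28. Cd28, which receives the B7 signal on T cells, changed by -1.02 ± 0.265 (SE; edgeR's adjusted p = 0.0237), and Ctla4, its inhibitory competitor, by 1.10 ± 0.283 (SE; edgeR's adjusted p = 0.0227). In CPM, Cd28 ran from 2.57 to 4.11 with clodrosome and from 4.57 to 9.01 with encapsome, and Ctla4 from 3.77 to 6.06 and from 1.45 to 3.12. The call of Cd28 was lost without clodrosome A or C or encapsome A or C (edgeR's adjusted p = 0.0688, 0.0757, 0.0783 and 0.0515). The call of Ctla4 was lost without clodrosome C or encapsome A or B (edgeR's adjusted p = 0.0816, 0.0582 and 0.0741). The inhibitory receptor gene Pdcd1 rose by 1.38 and Cd276, a B7 homologue of many tissues, fell by 0.55 on the log2 scale.

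The ligand of CD40 was at the limit of detection. Cd40lg had between 2 and 19 counts per library, 0.0658 to 0.159 CPM, and was not tested. Of the 9 tested TNF family costimulators, 2 were called higher and 2 lower, with a median of -0.17. Tnfrsf4, the OX40 receptor of activated and regulatory T cells, rose from 8.57 ± 1.45 to 16.7 ± 1.204 CPM (SD, n = 3 each; edgeR's adjusted p = 0.00146). Tnfrsf14, the receptor HVEM, fell from 10.6 ± 0.678 to 5.49 ± 0.985 CPM (SD, n = 3 each; edgeR's adjusted p = 0.00241). Its ligand gene Tnfsf14 changed by -0.71, a call lost without clodrosome A or C or encapsome B or C (edgeR's adjusted p = 0.0501, 0.0793, 0.0962 and 0.0703). Cd27, a costimulatory receptor of T cells, rose by 0.90, a call that was lost when any library but encapsome C was left out (edgeR's adjusted p = 0.0651, 0.0519 and 0.0648 without clodrosome A, B and C, and 0.0831 and 0.0877 without encapsome A and B).

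Among other genes of the mature dendritic cell programme more were called higher than lower, by small steps. Of 17 tested, 6 were called higher and 1 lower, with a median of 0.30. Slco5a1, a transporter-like gene, rose by 0.90, from 5.59 ± 1.44 to 10.4 ± 2.95 CPM (SD, n = 3 each). Nudt17, a nudix hydrolase, rose by 0.52 and Tbc1d4, a Rab GTPase regulator, by 0.38 on the log2 scale. The remaining rises, named after their values were seen, were Ankrd33b at 0.51, Arl5c at 0.56 and Cd200, an inhibitory membrane glycoprotein also made by endothelium and hair follicles, at 0.30. Marcks, an actin-linking membrane protein, fell from 264 ± 20.8 to 200.3 ± 12.8 CPM (SD, n = 3 each).

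Most of these calls were lost when a library was left out. The count of 6 became 3, 1, 1, 3 and 2 without clodrosome B, clodrosome C, encapsome A, encapsome B and encapsome C. The call of Tbc1d4 was lost without clodrosome C or encapsome C (edgeR's adjusted p = 0.0523 and 0.0503), and those of Slco5a1 and Nudt17 without clodrosome C, encapsome A or encapsome B (edgeR's adjusted p from 0.0666 to 0.105). Those of Ankrd33b, Arl5c and Cd200 were lost in 4, 5 and 5 of the 6 fits that left out a library, with edgeR's adjusted p from 0.0535 to 0.128 in those fits. Their log2 fold changes there ran from 0.40 to 0.54, from 0.39 to 0.61 and from 0.21 to 0.32. That of Marcks was lost without clodrosome C or encapsome B (edgeR's adjusted p = 0.0531 and 0.0508). Lamp3, often used to name mature dendritic cells, had 9 to 25 counts per library, 0.209 to 0.613 CPM, and did not pass (edgeR's adjusted p = 0.376). Il4i1, another common marker, had between 0 and 8 counts and was not tested. Several genes of this list have other sources in skin, and their part was not tested.

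Markers of dendritic and Langerhans cell identity divided. Of 16 tested genes 6 were called lower and 0 higher, with a median of -0.43. Those called lower are found in dendritic cells and also in macrophages or monocyte-derived cells. From which of these cells the falls came was not tested. Sirpa, an inhibitory receptor of myeloid cells, changed by -1.18 ± 0.0857 (SE; edgeR's adjusted p = 8.51e-05). The lectin gene Cd209a changed by -1.63, the transcription factor gene Irf8 by -0.90 and the integrin gene Itgax (CD11c) by -0.95 ± 0.0854 (SE; edgeR's adjusted p = 1.53e-04). Zbtb46, a transcription factor that marks conventional dendritic cells, held 5.99, 6.22 and 7.33 CPM with clodrosome and 5.62, 6.48 and 6.20 CPM with encapsome, in overlapping groups (log2 fold change 0.090 ± 0.139, SE; edgeR's adjusted p = 0.692). Flt3, the growth factor receptor of the same lineage, held 11.7 ± 1.28 against 9.10 ± 2.38 CPM (SD, n = 3 each; edgeR's adjusted p = 0.206, or 0.0185 with a term for the rRNA split). Among those not called, Xcr1 and Cd207 were lower without overlap, at -0.56 and -0.43 (edgeR's adjusted p = 0.136 and 0.0774). Flt3, Epcam and Cadm1 were higher without overlap, at 0.36, 0.19 and 0.21. All of these but Flt3 were named after their values were seen. A p that misses the threshold does not show equal levels.

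Relative to Itgax and Zbtb46 the level of Ccr7 was higher in clodrosome skin. The ratio of Ccr7 to Itgax within a library was 0.748, 0.952 and 1.07 with clodrosome and 0.197, 0.212 and 0.277 with encapsome, a difference of 2.01 on the log2 scale. The ratio of Ccr7 to Zbtb46 was 2.72, 2.94 and 3.15 with clodrosome and 1.48, 1.35 and 1.69 with encapsome, a difference of 0.97. Every clodrosome library exceeded every encapsome library in both (exact permutation test, two-sided, p = 0.1, the smallest possible, for each; adjusted p = 0.1 over 4 ratios). Both differences far exceeded the SD within a group, which was at most 0.266 and 0.160 on the log2 scale. They follow from the changes of Ccr7, Itgax and Zbtb46 given above, including the fall of Itgax, and are no separate result.

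**Figure D3:**
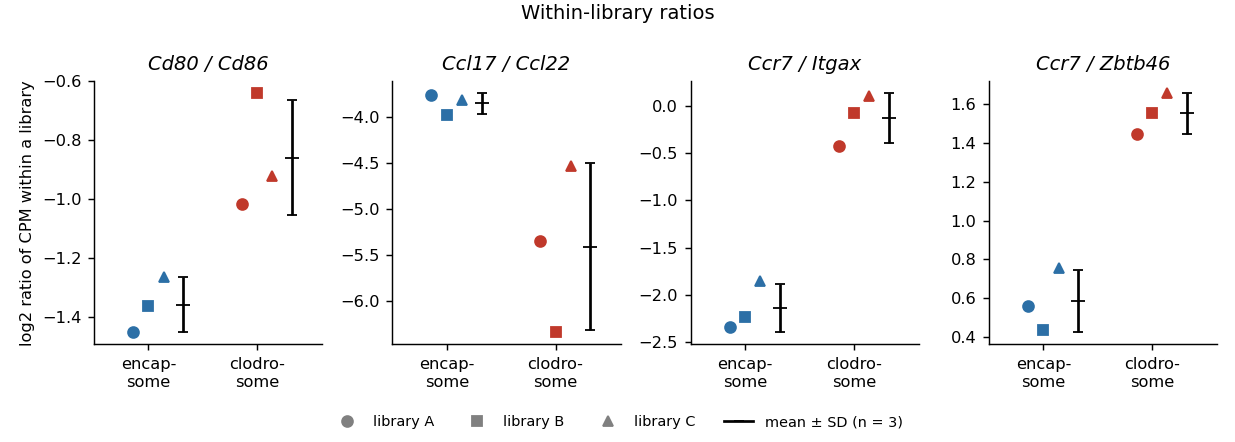
Log2 ratio of CPM (y axes, each with its own range) of gene pairs within each of 3 encapsome (blue) and 3 clodrosome (red) libraries, with mean ± SD beside the points. The groups do not overlap in any of the 4 panels, and the differences are 0.50 for Cd80 to Cd86, -1.56 for Ccl17 to Ccl22 (-0.85 with 1 CPM added to both genes), 2.01 for Ccr7 to Itgax and 0.97 for Ccr7 to Zbtb46.

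Genes of antigen presentation were mostly lower. Of 12 tested genes of MHC class II presentation 9 were called lower and 0 higher, with a median of -1.09, and the count stayed at 9 with any 1 library left out. Ctss, the protease cathepsin S that trims the invariant chain, changed by -2.18 ± 0.134 (SE; edgeR's adjusted p = 4.42e-05). Marchf1, a ubiquitin ligase that removes class II and CD86 from the surface of immature cells, went from 53.5 ± 2.43 to 19.3 ± 3.32 CPM (SD, n = 3 each; edgeR's adjusted p = 1.06e-04). The peptide-loading genes H2-DMb1 and H2-DMa changed by -1.14 and -1.27. These genes are shared by dendritic cells, macrophages and B cells.

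**Figure D4:**
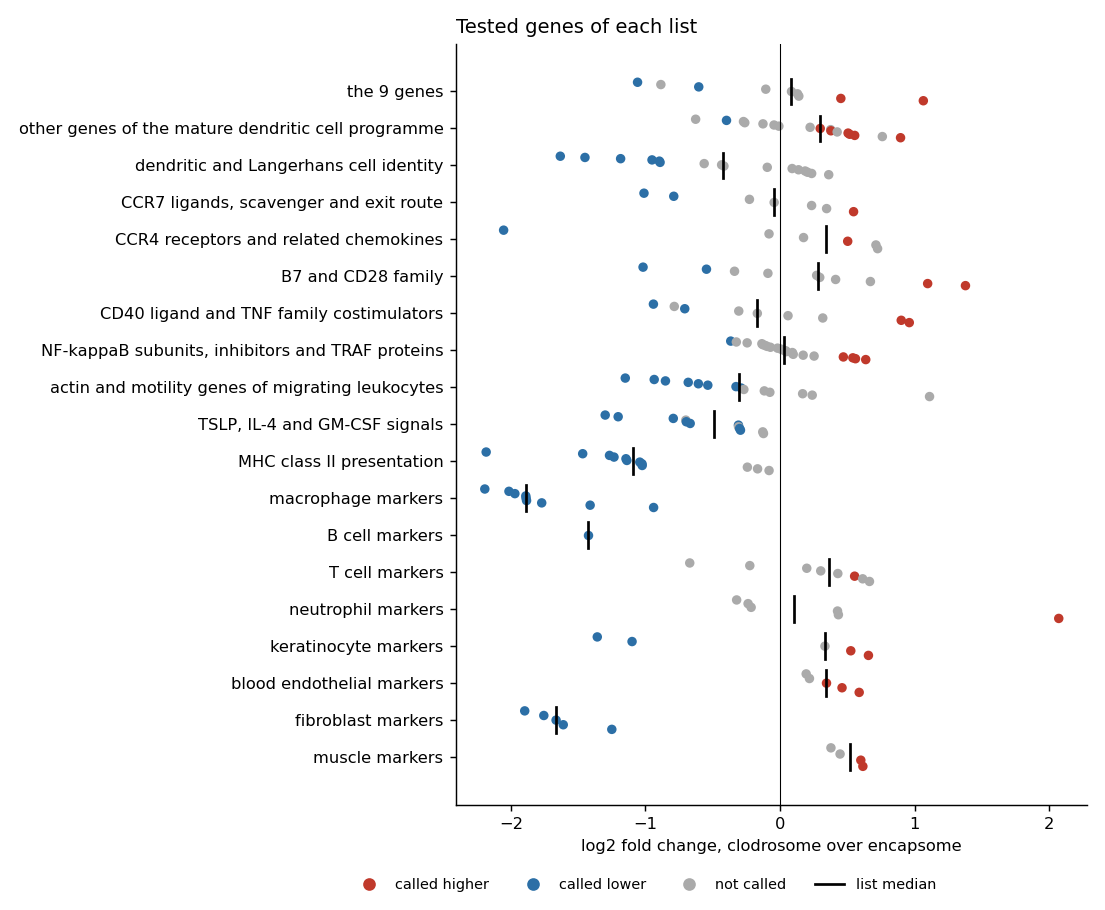
Log2 fold change (x axis, clodrosome over encapsome) of each tested gene in the lists used here; red marks genes called higher, blue lower, grey not called, and black lines the list medians. The 9 genes lie on both sides of 0 with a median of 0.085, the macrophage markers lie entirely below 0 with a median of -1.89, and the other genes of the mature programme have a median of 0.30.

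The order of the 9 genes by level per kilobase of exons differed between the groups. With encapsome it ran Fscn1, Cd86, Ccl22, Cd83, Relb, Ccr7, Cd40, Cd80 and Ccl17, from 48.9 down to 2.19 CPM per kb. With clodrosome it ran Fscn1, Ccr7, Ccl22, Cd83, Cd86, Relb, Cd80, Cd40 and Ccl17, from 51.9 down to 1.204 CPM per kb. Ccr7 went from the sixth place, at 4.64 ± 0.578, to the second, at 9.72 ± 1.76 CPM per kb. Cd86 went from the second, at 10.3 ± 0.686, to the fifth, at 6.77 ± 0.374 CPM per kb (SD, n = 3 each). Several neighbours overlapped in their libraries: Ccl22 with Cd83, Cd83 with Relb and Ccr7 with Cd40 with encapsome, and Ccr7 with Ccl22, Ccl22 with Cd83, Cd83 with Cd86, Cd86 with Relb and Cd40 with Ccl17 with clodrosome. Exon length is that of all annotated exons together, which exceeds that of most transcripts.

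**Figure D5:**
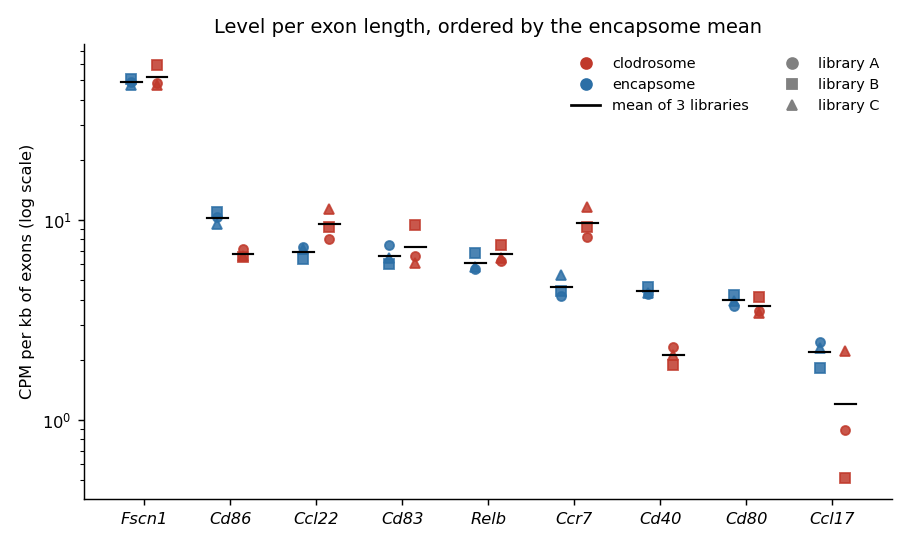
Level per exon length (CPM per kb, logarithmic y axis) of the 9 genes in each library, ordered by the encapsome mean; symbols mark libraries A, B and C and short lines the means of 3 libraries. Fscn1 lies at 47.1 to 59.9 CPM per kb, and the other 8 genes between 0.512 and 11.7 CPM per kb.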

How the data were processed

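Raw read counts per gene in 6 skin libraries were deposited by the authors, made with featureCounts 1.6.2 on the Ensembl 102 annotation of GRCm38, per the file headers. The deposited exon length per gene is the other value used. Trimmomatic 0.36, HISAT2 2.2.1, StringTie 2.2.1, DESeq2 1.34.0 and the build mm10 are listed in the submitters' processing notes. The counting command sets no option for pairs, strand or multiply mapped reads, so by default read ends are counted singly, strand is ignored and reads that fit several places are left out. The count columns were matched to groups by name.

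Symbols were found for 99.4% of identifiers. CPM were computed with TMM factors (0.982 to 1.02). Genes were tested on the counts by the quasi-likelihood test of edgeR 4.0.16 (R 4.3.3; glmQLFit, then glmQLFTest, with no term but the group), keeping what passed filterByExpr (minimum count 10, minimum total 15), with Benjamini-Hochberg adjustment over 17988 genes. Standard errors come from the log2 fold change and the square root of F. The procedure was tested on simulated data. Alternatives were RLE factors, library totals, DESeq2 1.42.0, limma-trend 3.58.1 (prior count 2), other filters, thinning of clodrosome A, a term for the rRNA split, leaving out each library and, added after seeing the data, a block by the numbers in the column names.

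The members and lists were chosen with earlier results of these data known. The text names all 9 members, fixed partner genes, up to 4 called genes of smallest p per pathway list, and the 5 profiles nearest Ccr7. Other genes are marked as named after their values were seen. Intervals at a count of 0 cover counting error only. A gene of the marker lists is left out of the text and not reported here.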

Additional observations from a re-analysis of the deposited data

How the results depend on the processing

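Ccr7 stayed called higher and Cd40 and Cd86 stayed called lower under every alternative run. The call of Ccl22 was the one lost among the 9 genes, and Ccl17 gained a call without clodrosome C. Leaving out single libraries gave 1 to 2 of the 9 called higher, and 1 with a term for the rRNA split. With single libraries left out, 2477 to 4396 genes were called in all and 821 to 1964 higher, against 4035 and 1692 with all 6 libraries. The reversals were of Fscn1, Cd83 and Relb, which passed no test. With single libraries left out Fscn1 ran from -0.024 to 0.14 and Cd83 from -0.062 to 0.25. With a pseudocount of 1 CPM the log2 ratio of Ccl17 to Ccl22 differed by -0.85 between the groups, against -1.56. The cause was not tested, except that a pseudocount by construction shrinks ratios of scarce genes. Of 540 counts for the gene lists under alternatives, 464 stayed within 1.5 times the count with all libraries and 76 did not. The count columns carry numbers other than those of the sample titles, and 2 of these numbers occur in both groups. A replicate block by the column numbers, chosen after seeing the data and with 1 residual degree of freedom, called the same 4 genes of the 9, 4293 genes in all and 3 rather than 6 of the other mature programme genes higher. In that block Fscn1 was at -0.027 and Relb at -0.0028. The deviations from the group means of same-numbered libraries correlated at -0.0358 and -0.0455 across 17988 genes, and nothing in the labels pairs them. Among the 9 genes depth limits Ccl17 most, at 8 to 55 counts per library.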
